A study of Arabidopsis thaliana with 3 samples.

Results

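The 49 genes described here are those of nuclear auxin signalling in Arabidopsis thaliana: 29 Aux/IAA repressors (IAA1 to IAA20 and IAA26 to IAA34), 14 auxin response factors (ARF1 to ARF11, ARF16, ARF17 and ARF19) and 6 receptors (TIR1 and AFB1 to AFB5). They were taken by their AGI locus identifiers from the 27416 genes in the deposited files, and all 49 were found. Of the rows in those files 27206 are nuclear genes, which serve as the background throughout. The samples were 3 libraries, numbered 4, 5 and 6, from whole wild-type plants of the Col-0 accession, the common laboratory strain, harvested at 3 weeks of age as seedlings on MS agar. Growth was at 23 ± 2 °C with 16 h days and 8 h nights, and no treatment or mutation is named. There was 1 group, so the data give the level of each gene within these plants and the spread between libraries, which the labels do not tie to separate plants or plates. RNA was depleted of ribosomal RNA and sequenced from directional libraries. Totals of 19921241, 19905762 and 19892527 reads for replicates 4, 5 and 6 were worked out from the deposited values and are not reported depths.

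Auxin is read in the nucleus by a short chain of proteins. TIR1 and the AFB proteins are the F-box subunits of SCF ubiquitin ligases, and auxin acts as a glue between them and the Aux/IAA proteins, which are then degraded. Aux/IAA proteins bind ARF proteins, transcription factors that sit on auxin response elements in promoters, and bring in corepressors of the TOPLESS family, so that their loss frees the ARF proteins. Many Aux/IAA genes are themselves switched on by auxin, which gives the chain a negative feedback. Small RNAs act on the mRNA of several ARFs and receptors: miR160, miR167, miR393 and the small interfering RNAs made from the TAS3 transcript.

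These small RNAs define groups within the families, so their sequences and their matches in the member genes come first. The mature miRNAs below are written as DNA, 5′ to 3′, from the RefSeq annotation of the assembly TAIR10.1, with the seed, bases 2 to 8, in capitals. The TAS3 line is the 21-base window, among 927 in the annotated TAS3 transcript, with the fewest mismatches summed over ARF2, ARF3 and ARF4, 4 in all. It was picked for that match, so the low counts in those 3 genes are part of the choice.
miR160a-5p: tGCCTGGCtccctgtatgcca
miR167a-5p: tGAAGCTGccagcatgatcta
miR393a-5p: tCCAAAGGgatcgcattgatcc
TAS3 window: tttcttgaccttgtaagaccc
They lie at chr2:16340282-16340302, chr3:8108090-8108110, chr2:16652111-16652132 and chr3:5862205-5862225, all on the plus strand. The small RNA precursors are not among the rows of the files, so their levels were not analysed here.

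Each small RNA was set without gaps against the annotated mRNAs of 26710 nuclear protein-coding genes, and sites with up to 4 mismatches were kept, a G:U pair counting as a mismatch. Matches to miR160a-5p were found in 3 genes (0.011%), and all of them are members: ARF10, ARF16 and ARF17. Matches to miR167a-5p were found in 7 genes (0.026%), among them the members ARF6 and ARF8, and matches to miR393a-5p in 8 genes (0.030%), among them TIR1, AFB1, AFB2 and AFB3. The TAS3 window matched 16 genes (0.060%), with ARF2 at 1 site and ARF3 and ARF4 at 2 sites each. No other member had fewer than 6 mismatches to any of the 4 sequences. A match is a stretch of letters and does not show that the small RNA acted there.

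The sites in the members are given 5′ to 3′ on the mRNA strand, in lower case where they pair with the small RNA and in capitals where they do not. All lie within coding sequence.
ARF17, miR160: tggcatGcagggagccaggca
ARF10, miR160: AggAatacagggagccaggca
ARF16, miR160: GggTTtacagggagccaggca
ARF8, miR167: tagatcaGgctggcagcttGT
ARF6, miR167: GagatcaGgctggcagcttGT
AFB2, miR393: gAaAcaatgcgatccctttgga
AFB3, miR393: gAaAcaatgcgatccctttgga
TIR1, miR393: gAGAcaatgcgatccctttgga
AFB1, miR393: gAGAcCatgcgatccctttgga
ARF3, TAS3 window: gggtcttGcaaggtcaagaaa
ARF4, TAS3 window: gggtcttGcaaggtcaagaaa
ARF2, TAS3 window: gggtcttGcaaggtcaagaaT
The miR160 sites lie at chr1:29274189-29274209 (ARF17, plus strand), chr2:12115741-12115761 (ARF10, plus strand) and chr4:14704141-14704161 (ARF16, minus strand). The miR167 sites lie at chr5:14633841-14633861 (ARF8, plus strand) and chr1:10686478-10686498 (ARF6, minus strand). The miR393 sites lie at chr3:9870237-9870258 (AFB2, plus strand), chr1:4369085-4369106 (AFB3, minus strand), chr3:23273727-23273748 (TIR1, minus strand) and chr4:1405341-1405362 (AFB1, minus strand). The TAS3 matches shown lie at chr2:14325941-14325961 (ARF3, minus strand), chr5:24309507-24309527 (ARF4, minus strand) and chr5:24913262-24913282 (ARF2, plus strand). In the miR393 set AFB2 and AFB3 share 1 sequence with 2 mismatches, TIR1 has 3 mismatches and AFB1 has 4.

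Values are printed as FPKM (fragments scaled by gene length and by the library's total), a name taken from the tools in the submitters' processing notes, since the headers give no unit. RPKM from whole reads is equally possible. A gene counts as detected at 1 FPKM or more in each of the 3 libraries, which held for 63.0% of all nuclear genes. Of the 49 members 42 (85.7%) were detected: 22 of 29 Aux/IAA genes, 14 of 14 ARFs and 6 of 6 receptors. The mean level of the member in the middle of the order was 18.7 FPKM, against 4.71 FPKM for all nuclear genes and 13.1 FPKM for the detected ones. The highest 10.0% of nuclear genes, which begin at 46.6 FPKM, held 9 of the 49 members. In whole plants fewer cells of a type and less RNA per cell cannot be told apart.

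Marker genes of organs and cell types were read in the same libraries. Of 11 root marker genes 3 were detected, with a sum of 11.5 to 13.2 FPKM over the libraries. The Casparian strip gene CASP1 had 4.27 ± 0.733 FPKM (SD, n = 3), while the root hair genes COBL9 and EXPA7 had 0.070 ± 0.047 and 0.016 ± 0.028 FPKM. The 4 green shoot markers summed to 25088 to 25447 FPKM. The shoot meristem gene STM had 12.1 ± 1.08 FPKM, WUS was at 0 (up to 0.121 FPKM is allowed by 3 counts), CLV3 had 0.053 ± 0.091 FPKM, and none of 4 flower markers was detected, with sums of 0.633 to 1.06 FPKM. The other detected ones were CASP2 (3.08 ± 0.489 FPKM) and the iron transporter IRT1 (2.24 ± 0.454 FPKM), and the root meristem genes PLT2 and WOX5 had 0.133 ± 0.068 and 0.134 ± 0.067 FPKM. The part of organ makeup in the levels below was not tested.

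**Figure D1:**
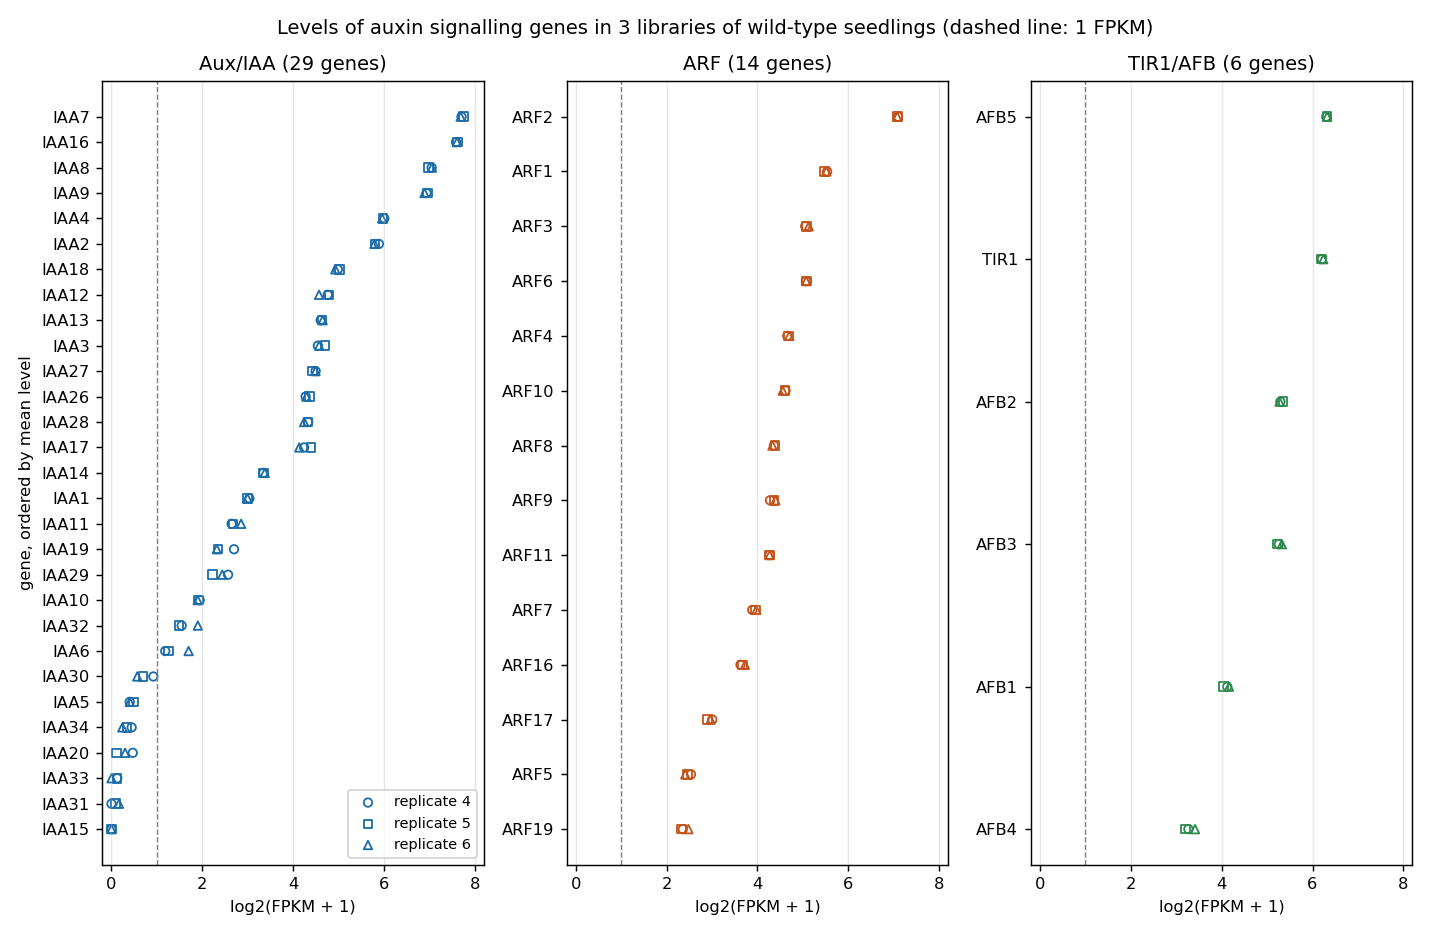
Level of each of the 49 genes on the log2(FPKM + 1) scale (x axis), ordered by mean level within each family (y axis), with 1 symbol for each of the 3 libraries and a dashed line at 1 FPKM. The Aux/IAA genes run from 0 for IAA15 to 209 FPKM for IAA7, whereas every ARF and every receptor lies right of the line in all 3 libraries.

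Among the receptors, AFB5 and TIR1 stood highest. AFB5 (AT5G49980), of the branch of the family known for binding the synthetic auxin picloram, had 77.9, 79.0 and 79.0 FPKM in replicates 4, 5 and 6. TIR1 (AT3G62980), the founding auxin receptor, had 72.9, 72.6 and 74.4 FPKM. All 3 values of AFB5 were above all 3 of TIR1, by 0.10 ± 0.019 on the log2(FPKM + 1) scale (n = 3). AFB2 had 38.2, 39.9 and 37.7 FPKM and AFB3 had 37.3, 36.1 and 39.1 FPKM. These ranges overlapped, and AFB2 minus AFB3 was 0.04 ± 0.097, above 0 in 2 of 3 libraries. AFB2 was below TIR1 in every library, with a log2 difference of -0.91 ± 0.058.

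The remaining receptors were lower. AFB1, which is known for fast auxin responses in roots, had 16.4, 15.4 and 16.9 FPKM, with a log2 difference from TIR1 of -2.11 ± 0.048. AFB4, the closest relative of AFB5, was lowest at 8.63, 8.21 and 9.65 FPKM, and AFB5 was 8.94 ± 0.724 times as high as AFB4 (log2 difference 3.02 ± 0.11). By their ranges over the libraries the 6 receptors thus fell into 5 steps, with AFB2 and AFB3 not told apart. These ranges do not cover errors in the gene lengths behind the values, so small differences between genes are less certain. The 4 receptors with a miR393 match held 65.4 ± 0.15% of the receptor sum, and AFB4 and AFB5, which had 7 and 8 mismatches, held 34.6 ± 0.15%. AFB5 alone held 31.1 ± 0.35%.

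Aux/IAA levels spanned the widest range of the 3 families. IAA7 (AXR2, AT3G23050, chr3:8194606-8197161), in which a stabilising mutation gives an auxin-resistant dwarf, had 208, 214 and 205 FPKM. IAA16 (AT3G04730, chr3:1288155-1290891), of the same branch, had 191, 195 and 193 FPKM. IAA8 (AT2G22670, chr2:9636346-9638761) had 131, 125 and 132 FPKM, and IAA9 (AT5G65670, chr5:26253408-26256544) had 121, 123 and 118 FPKM. These 4 genes were in the same order in all 3 libraries and together held 66.0 ± 0.33% of the summed level of the 29 genes, with IAA7 at 21.2 ± 0.31%. The ranges of IAA7 and IAA16 did not overlap, nor did those of IAA8 and IAA9, although IAA8 exceeded IAA9 by only 0.10 ± 0.073 on the log2 scale. These ranges do not cover errors in gene length, and the length used for IAA7 could not be fixed.

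Next came IAA4 and IAA2, at 62.2 ± 1.01 and 55.8 ± 2.12 FPKM, and then a band of 8 genes between 18.1 and 30.5 FPKM. The band was IAA18 (30.5 ± 0.964), IAA12 (25.1 ± 2.09), IAA13 (23.8 ± 0.385), IAA3 (23.4 ± 1.45), IAA27 (21.2 ± 0.618), IAA26 (18.8 ± 0.618), IAA28 (18.7 ± 0.670) and IAA17 (18.1 ± 1.72 FPKM). IAA12 (BODENLOS) is known for its role in forming the embryonic root, and IAA3 (SHY2) for setting the size of the root meristem. Neighbours in this band were often not told apart: the ranges of IAA12, IAA13 and IAA3 overlapped in turn, as did those of IAA26, IAA28 and IAA17. IAA14 (SOLITARY-ROOT), known for blocking lateral root formation when stabilised, had 9.15, 9.19 and 9.36 FPKM, and IAA1 had 120, 116 and 116 reads (7.04 ± 0.134 FPKM).

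The genes IAA11 (5.62 ± 0.530 FPKM), IAA19 (4.52 ± 0.836), IAA29 (4.33 ± 0.638), IAA10 (2.78 ± 0.059), IAA32 (2.15 ± 0.508) and IAA6 (1.64 ± 0.529) were detected at low levels. IAA19 (MASSUGU2), known for tropic bending of the hypocotyl, had 5.49, 4.09 and 3.99 FPKM. The 7 genes not detected were IAA30 (0.664 ± 0.209 FPKM), IAA5 (0.347 ± 0.046), IAA34 (0.270 ± 0.090), IAA20 (0.230 ± 0.153), IAA33 (0.061 ± 0.053), IAA31 (0.060 ± 0.060) and IAA15. In reads, IAA31 had 0, 1 and 2, and IAA33 had 1, 1 and 0. IAA15 had none in any library, which allows up to 0.173 FPKM (3 counts, counting error only), and 18.2% of nuclear genes were at 0 in all libraries. The order among IAA34, IAA20, IAA33, IAA31 and IAA15 cannot be read from so few reads. Of 28 pairs of neighbours in the order of the 29 genes, 13 overlapped in range and 15 did not.

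The degron of domain II, the stretch through which an Aux/IAA protein is bound by TIR1 and auxin, has a core of Gly-Trp-Pro-Pro. The codons for this core, GGNTGGCCNCCN read in frame in the longest annotated coding sequence, were present in 23 of 29 Aux/IAA genes, in 0 of 14 ARFs and 0 of 6 receptors, and in 34 of 26710 nuclear protein-coding genes (0.127%). Those of the 4 highest genes, of IAA17 (AXR3), of IAA19 and of IAA15, which had no reads, are shown on the coding strand with the 4 codons in capitals.
IAA7: gtggtgGGATGGCCACCTgtgagg
IAA16: gttgtgGGATGGCCACCGgtacga
IAA8: gttgttGGTTGGCCTCCAatcaga
IAA9: attgtcGGTTGGCCTCCAgtgaga
IAA17: gttgtgGGATGGCCACCGgtgaga
IAA19: gtggtgGGGTGGCCACCGgtttgt
IAA15: ttggtgGGCTGGCCGCCGgtagcg

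The 6 genes without these codons were IAA20, IAA30, IAA31, IAA32, IAA33 and IAA34, which are known as noncanonical members. Their levels ran from 0.060 to 2.15 FPKM, and IAA32 was the only detected one, at 1.92, 1.80 and 2.73 FPKM. Together they had 3.64, 2.92 and 3.75 FPKM in replicates 4, 5 and 6, or 0.348 ± 0.048% of the family sum. The 23 genes with the codons had 989, 994 and 973 FPKM together, 99.7 ± 0.048% of the sum, and 21 of them were detected. The group with the codons had a median of 18.8 FPKM, but the groups overlapped, since IAA15, IAA5 and IAA6 have the codons and were below IAA32. A second feature, codons for the leucine repeat of the EAR motif that binds TOPLESS proteins (leucine at every other of 5 codons), was found in 28 of 29 Aux/IAA genes, with IAA33 as the exception. It stood in 27.5% of all nuclear protein-coding genes, in 3 of 14 ARFs (ARF2, ARF11 and ARF19) and in none of the 6 receptors.

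**Figure D2:**
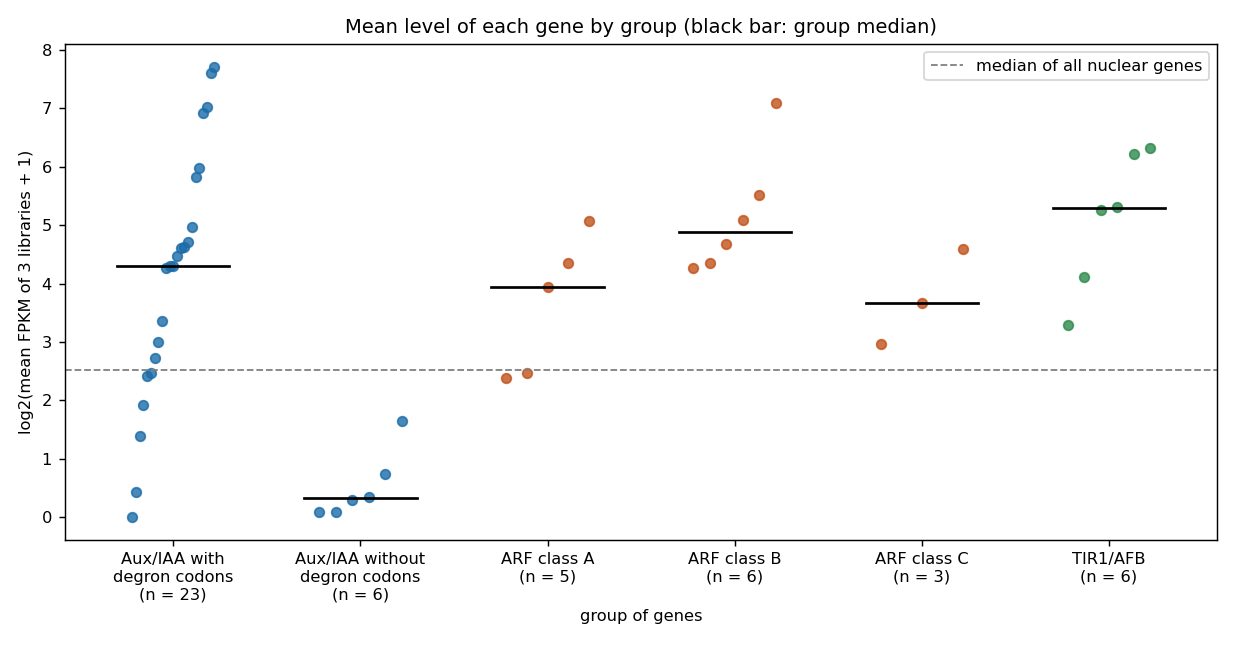
Mean level of each gene over 3 libraries on the log2(FPKM + 1) scale (y axis) by group (x axis), with a black bar at the group median and a dashed line at the median of all nuclear genes. The 6 Aux/IAA genes without degron codons lie under the dashed line, while the 6 member ARFs of class B all lie above it.

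Promoters of Aux/IAA genes are known to hold auxin response elements, so the window from 250 bases before to 50 after each annotated start was searched on both strands. The classical element TGTCTC was present in 12 of 29 Aux/IAA windows (41.4%), 1 of 14 ARF windows (ARF3) and 1 of 6 receptor windows (AFB5), against 14.2% of 26709 nuclear protein-coding genes. The high-affinity form TGTCGG was present in 6 Aux/IAA windows (20.7%), in those of ARF7 and ARF19 and in none of the 6 receptor windows, against 5.12%. The wider pattern TGTCNN, which includes both, was present in 25 of 29 Aux/IAA windows and in 81.3% of all. The 12 Aux/IAA genes with TGTCTC were IAA1, IAA5, IAA6, IAA8, IAA15, IAA19, IAA20, IAA28, IAA30, IAA31, IAA32 and IAA34. Their median level was 1.15 FPKM and 6 of them were detected, whereas the 17 without it had a median of 23.4 FPKM and 16 were detected. The levels overlapped, as IAA8 (129 ± 3.80 FPKM) holds TGTCTC and IAA33 does not. All genes without degron codons except IAA33 are in the group with TGTCTC, so this split overlaps that by degron codons. The 6 Aux/IAA genes with TGTCGG did not share the low levels: IAA16 had a mean of 193 FPKM, IAA12 25.1, IAA13 23.8, IAA27 21.2, IAA1 7.04 and only IAA5 was undetected, at 0.347 FPKM. A match in letters is not shown to be bound here, and the absence of these letters applies to this window only.

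IAA1 and IAA5 were the Aux/IAA genes with both elements. The 250 bases before their starts are printed on the gene's own strand, with TGTCTC and TGTCGG, or their reverse complements GAGACA and CCGACA, in capitals.
IAA1: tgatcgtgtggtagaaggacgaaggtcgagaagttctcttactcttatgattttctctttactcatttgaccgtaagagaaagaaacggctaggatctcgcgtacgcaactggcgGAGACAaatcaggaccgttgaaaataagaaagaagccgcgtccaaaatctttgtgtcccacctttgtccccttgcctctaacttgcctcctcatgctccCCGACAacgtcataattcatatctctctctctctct
IAA5: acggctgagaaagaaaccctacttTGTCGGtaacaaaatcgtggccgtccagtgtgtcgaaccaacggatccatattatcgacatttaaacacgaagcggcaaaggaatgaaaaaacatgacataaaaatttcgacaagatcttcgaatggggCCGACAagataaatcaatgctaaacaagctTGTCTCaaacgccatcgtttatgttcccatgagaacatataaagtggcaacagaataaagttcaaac
They lie at chr4:8360746-8360995 (plus strand) and chr1:5366498-5366747 (minus strand) on TAIR10.1. In the plants IAA1 had 7.04 ± 0.134 FPKM and IAA5 had 0.347 ± 0.046 FPKM.

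Close relatives among the Aux/IAA genes were at very different levels in some pairs and at similar levels in others. IAA8 and IAA9, given above, had a log2 difference of only 0.10 ± 0.073. IAA2 was 7.92 ± 0.15 times as high as IAA1 (log2 difference 2.82 ± 0.030), and IAA3 was below IAA4 (-1.38 ± 0.092). In the branch of IAA7, IAA16 was only slightly lower than IAA7 (-0.12 ± 0.027), whereas IAA17 and IAA14 were far lower (-3.46 ± 0.096 and -4.36 ± 0.044). IAA27 was likewise below IAA9 (-2.46 ± 0.070), and both IAA26 and IAA28 were below IAA18 (-0.67 ± 0.037 and -0.68 ± 0.019). IAA10 was below IAA11 (-0.81 ± 0.13). IAA13 and IAA12 were not told apart, at -0.08 ± 0.13 with both signs among the libraries.

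In the branch of IAA19, this gene exceeded IAA5 by 2.03 ± 0.24 and IAA6 by 1.07 ± 0.45 on the same scale. The second of these differences ran from 0.62 to 1.51 over the libraries, because IAA19 was highest in replicate 4 and IAA6 in replicate 6. Among the genes without degron codons, IAA20 and IAA31 were below IAA30 (-0.44 ± 0.16 and -0.64 ± 0.26), and IAA34 was below IAA32 (-1.30 ± 0.31). The 1 FPKM added before the log2 narrows the differences between such low genes. In all, 30 of 32 differences between single genes had the same sign in the 3 libraries. The share among other pairs of nuclear genes was not computed, so this count is not shown to be particular to these pairs. No test was made of the 32 differences, because flipping the signs of 3 values (exact, two-sided) allows no p under 0.25.

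Aux/IAA genes stand next to each other at 3 places in the genome, and in each case no annotated protein-coding gene lies between them. IAA14 and IAA1 on chromosome 4 are 10.7 kb apart, IAA7 and IAA2 on chromosome 3 are 12.5 kb apart, and IAA17 and IAA3 on chromosome 1 are 6.39 kb apart, each pair transcribed away from each other. The levels differed by place. IAA7 (209 ± 4.76 FPKM) and IAA2 (55.8 ± 2.12 FPKM) were both high, with a log2 difference of 1.89 ± 0.065. IAA17 and IAA3 were intermediate, with -0.35 ± 0.076, and IAA14 and IAA1 were lower, with 0.35 ± 0.036. The gene of the IAA7, IAA14 and IAA17 branch was thus the higher one at 2 places and the lower one at the third.

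**Figure D3:**
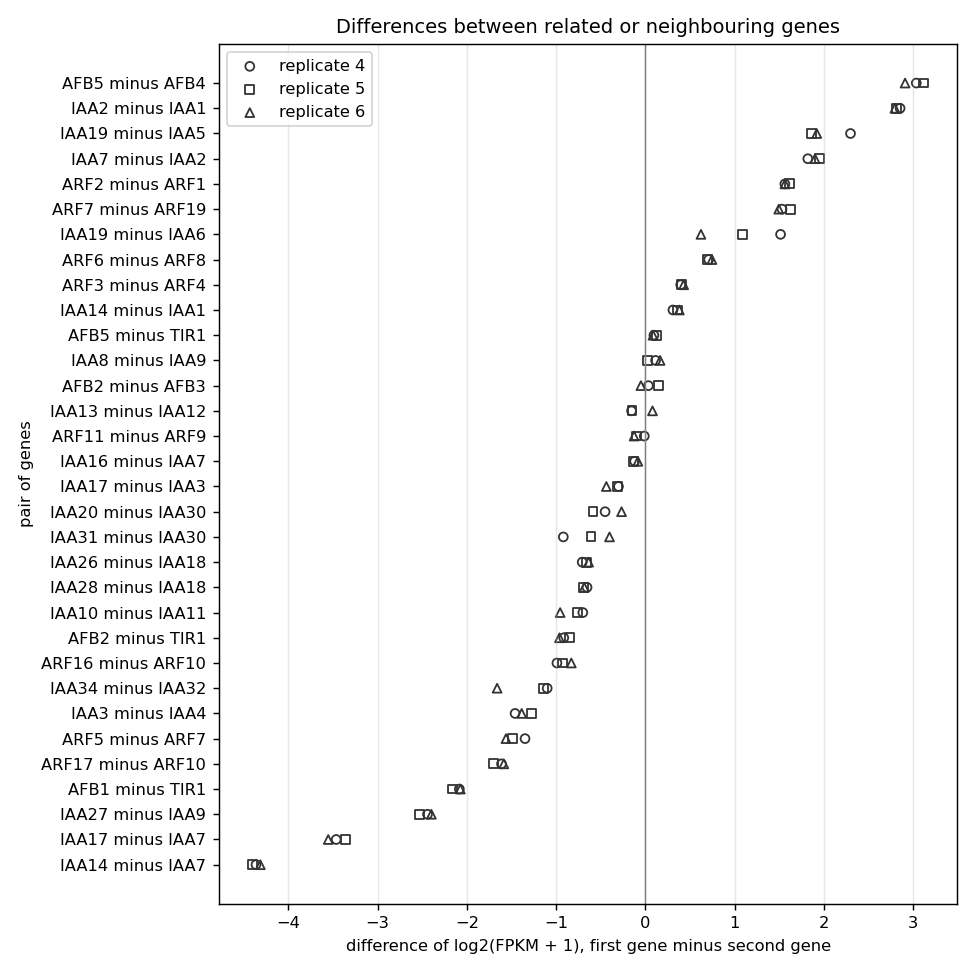
Difference of log2(FPKM + 1), first gene minus second gene (x axis), for 32 pairs of close relatives or neighbouring genes (y axis), with 1 symbol for each of the 3 libraries and a line at 0. Symbols of a pair lie close together except in pairs of low genes, and only AFB2 minus AFB3 and IAA13 minus IAA12 have symbols on both sides of 0.

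All 14 ARFs were detected, over a narrower range than the Aux/IAA genes. ARF2 (AT5G62000, chr5:24910191-24915395), a repressor known for limiting seed size and timing leaf senescence, was highest at 136, 135 and 134 FPKM, which was 34.5 ± 0.31% of the ARF sum. ARF1, its close relative, followed at 45.4, 43.6 and 44.7 FPKM, and the log2 difference of ARF2 and ARF1 was 1.58 ± 0.027. ARF3 (ETTIN) and ARF4 act in leaf and floral organ polarity. ARF3 had 32.2, 32.9 and 34.0 FPKM and ARF4 had 24.2, 24.6 and 25.0 FPKM, with no overlap and a log2 difference of 0.41 ± 0.017. ARF11 had 18.2 ± 0.025 FPKM and ARF9 had 19.4 ± 0.866 FPKM, with ARF11 lower in 3 of 3 libraries by a small log2 difference (-0.08 ± 0.060). Among the 14 member ARFs these 6 genes form class B, whose proteins mostly repress in test systems. They summed to 275 ± 1.15 FPKM, or 70.1 ± 0.093% of the ARF sum, and ARF2 alone held 49.1 ± 0.50% of this class sum.

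Class A holds the activators, whose middle regions are rich in glutamine. ARF6 and ARF8, which act together in flower maturation, had 32.7 ± 0.097 and 19.5 ± 0.376 FPKM. ARF7 (NPH4), an activator in tropisms and lateral root formation, had 13.8, 14.5 and 14.7 FPKM. ARF19, its partner in those roles, was the lowest member ARF at 4.12, 4.02 and 4.58 FPKM, and ARF7 exceeded it by 1.55 ± 0.069 on the log2 scale. ARF5 (MONOPTEROS), required for the embryonic root and for vascular tissue, had 4.80, 4.51 and 4.32 FPKM, a range that overlapped that of ARF19. The class A sum was 75.3 ± 0.419 FPKM, and its log2 difference from the class B sum was -1.85 ± 0.009, negative in all 3 libraries.

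Class C holds the miR160 group. ARF10 and ARF16, which act in the root cap, had 23.1 ± 0.547 and 11.8 ± 0.436 FPKM, and ARF17 had 7.04, 6.46 and 6.83 FPKM. ARF16 and ARF17 were below ARF10 by log2 differences of -0.92 ± 0.082 and -1.63 ± 0.061. The order of levels was ARF10, ARF16, ARF17, and that of mismatches in the sites shown above, from fewest, was ARF17, ARF10, ARF16. A link between sites and levels was not tested. The class sum, 41.7 ± 0.254 FPKM, was below that of class B by -2.69 ± 0.012. Classes A, B and C hold 5, 6 and 3 of the members, and their medians were closer than their sums, at 14.3, 28.8 and 11.8 FPKM. The 8 ARFs with a match to miR160, miR167 or the TAS3 window held 73.1 ± 0.22% of the ARF sum, and the 6 without one held 26.9 ± 0.22%. ARF2 alone makes up much of the first share, and the medians of the 2 groups were 23.9 and 16.3 FPKM.

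The other 9 ARF genes of the genome, which are not in the ARF and class sums given here, were mostly at or near 0. Among them ARF18 had 9.11 ± 0.675 FPKM, ARF20 had 0.113 ± 0.057 FPKM and 7 were at 0, which allows from 0.0779 to 0.225 FPKM. The sequence these 9 genes share with each other was not analysed here, so their levels are uncertain to that extent.

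Set against each other, the families differed in their sums. The 29 Aux/IAA genes summed to 989 ± 10.4 FPKM, the 14 ARFs to 392 ± 1.16 FPKM and the 6 receptors to 253 ± 3.15 FPKM. The Aux/IAA sum was 2.52 ± 0.033 times the ARF sum and 3.91 ± 0.088 times the receptor sum, and the ARF sum was 1.55 ± 0.015 times the receptor sum. The order of the medians was the reverse: 38.0 FPKM for the receptors, 19.4 FPKM for the ARFs and 9.23 FPKM for the Aux/IAA genes. The order of the ARFs and the Aux/IAA genes rests on the low Aux/IAA genes: with only genes at a mean of 1 FPKM or more, the ARF median lay 0.59 and the Aux/IAA median 0.62 above that of nuclear genes on the log2(FPKM + 1) scale. Over all genes, on the same scale, the 3 family medians lay 2.78, 1.84 and 0.84 above that of all nuclear genes, with 2.76 to 2.79, 1.81 to 1.86 and 0.83 to 0.86 in single libraries. All 6 receptors, 12 of 14 ARFs (all but ARF5 and ARF19) and 17 of 29 Aux/IAA genes were above the nuclear median.

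Genes that work with these families gave the following levels. All 9 genes of the SCF ligase and of RUB conjugation, which activates it, were detected, from CAND1 (11.05 ± 0.603 FPKM) upward, led by the adaptor ASK1 (171 ± 3.46 FPKM) and its relative ASK2 (96.8 ± 1.85 FPKM), with the cullin CUL1 at 65.1 ± 0.479 FPKM. The 5 TOPLESS corepressors were detected, from TPR3 (7.25 ± 0.440 FPKM) to TPL itself (48.8 ± 0.634 FPKM). Of 14 early auxin response genes 8 were detected, with a median of 1.60 FPKM: HAT2 (24.7 ± 0.804 FPKM) and the auxin-conjugating enzyme GH3.6 (22.5 ± 1.28 FPKM) were highest. The strongly auxin-induced GH3.3 had 1.53 ± 0.299 FPKM, and LBD29, a lateral root gene controlled by ARF7 and ARF19, had 0.070 ± 0.060 FPKM. Of 5 genes of auxin perception at the cell surface 4 were detected, among them the receptor-like kinases TMK1 and TMK3 with 46.4 ± 0.520 and 38.8 ± 0.535 FPKM, and TMK2 was at 0, which allows up to 0.0567 FPKM.

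The spread between libraries was small for most members. In 37 of the 42 detected genes the highest library was less than 1.2-fold above the lowest, against 78.8% of nuclear genes with a mean of at least 1 FPKM. A difference of 1.5-fold or more was seen in 2 of 42, IAA6 and IAA32, against 4.25% of those nuclear genes, a share near that of the members. IAA6 had 21, 23 and 37 reads in replicates 4, 5 and 6, with replicate 6 highest. Among the 42 detected genes, replicate 4 was highest in 13, replicate 5 in 12 and replicate 6 in 17.

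Depth sets the precision of these values. Whole reads could be recovered for 45 members with reads, from 2 to 27501 over the 3 libraries together, and IAA7, IAA32 and ARF17 had more than 1 fitting gene length. In the 38 members with a mean of 30 or more such reads, the variance between libraries was a median of 0.870 times the variance from counting alone, against 1.04 times in 16159 nuclear genes. Under counting alone the median of this ratio over 3 libraries falls below 1, while its mean is 1. The means were 1.23 in the 38 members and 1.52 in those nuclear genes. The variance between libraries was at least 3 times the counting variance in 4 of the 38, IAA12, IAA8, IAA17 and AFB4, against 13.3% of those nuclear genes. IAA12 had 684, 696 and 595 reads, with replicate 6 lowest, and IAA17 had 388, 432 and 358 reads. At the other end ARF11 had 849, 850 and 850 reads and ARF6 had 2511, 2524 and 2516 reads.

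**Figure D4:**
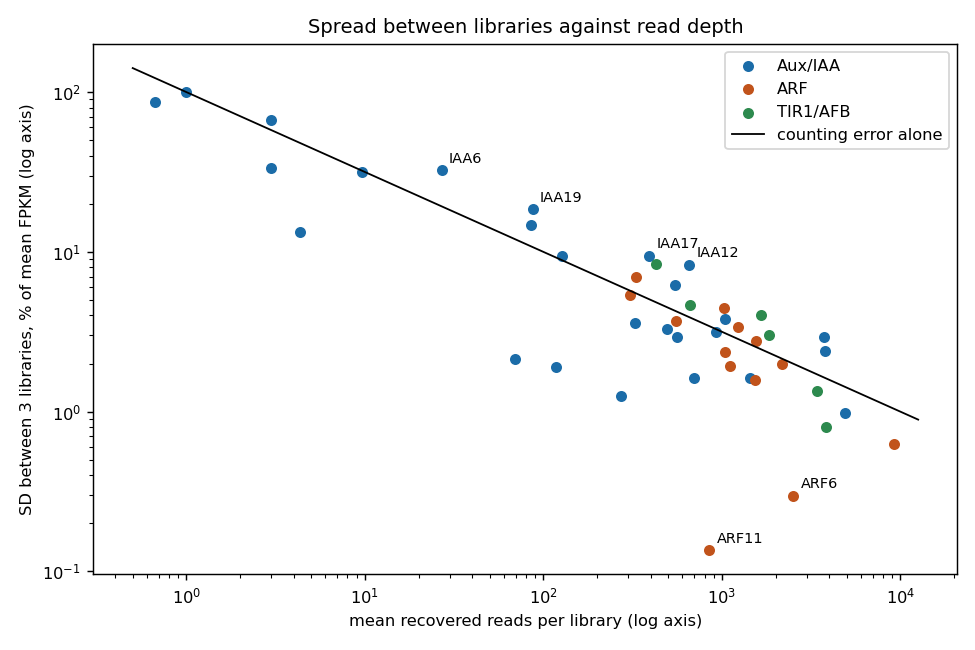
SD between 3 libraries as a percentage of the mean FPKM (y axis, log axis) against mean recovered reads per library (x axis, log axis) for the 45 genes with clear reads, coloured by family, with a line for counting error alone. Genes scatter on both sides of the line, with IAA12 and IAA17 above it and ARF11 and ARF6 far below it.

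Exact 50-base words from the exons of the members were almost all unique in the nuclear genome. Words with mismatches and words across exon junctions were not checked. In 48 of 49 members none of the 50-base exonic words occurred elsewhere in the nuclear genome, and in IAA13 the share was 0.405%. Gene models of 16 members (32.7%) overlapped another annotated gene, in 14 of them on the opposite strand, against 27.5% of 26719 nuclear genes with an overlap and 23.8% with one on the opposite strand. Since the strand setting of the counting is not given in the sources used here, reads of such partners may not be told apart. The longest overlap, 1176 bases of IAA13 with AT2G33300, involved a partner at 0 FPKM. ARF7 overlapped AT5G20720 by 254 bases, and that partner had 344 ± 8.90 FPKM against 14.3 ± 0.487 FPKM for ARF7. IAA32 overlapped AT2G01210 (3.01 ± 0.492 FPKM) by 826 bases, IAA3 overlapped AT1G04230 (7.02 ± 0.652 FPKM) by 640 bases and AFB4 overlapped AT4G24380 (1.82 ± 0.487 FPKM) by 644 bases. IAA34 shares 156 bases on its own strand with AT1G15060, which had 11.8 ± 0.588 FPKM against 0.270 ± 0.090 FPKM for IAA34. Some partners on the opposite strand have no deposited values, so their levels are not known. Among them AT1G04105 overlapped IAA10 by 619 bases, AT1G04977 overlapped AFB3 by 638 bases and AT4G04455 overlapped AFB1 by 423 bases.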

How the data were processed

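For each library the authors deposited a table of gene values, taken here as FPKM, though no header names the unit. Per the submitters' processing notes, TopHat2 2.0.9, Cufflinks 2.1.1 and the build TAIR10 were used, with no roles given. The handling of strand and of multiply matching reads is not given in the sources used here. Library totals were found from genes at their annotated length, and reads were recovered as the whole numbers (within 0.0001 reads plus 1e-09 of the reads) that fit 1 length between 0.6 times the shortest transcript and 1.05 times the joined exons; 19940 genes had 1 such length. On values simulated as whole reads over length and total, with lengths inside that window, 1884 of 1982 genes had 1 such length. All 1884 gave back their exact reads, which does not test whether the deposited values were made that way. Levels are means ± SD over 3 libraries; differences are on log2(FPKM + 1) within each library, with no test, since there is 1 group. The files hold no coordinates; those given are 1-based on TAIR10.1 (RefSeq), whose gene table, annotation and genome gave names, lengths and sequences. The protein motifs planned were searched as codons in the longest coding sequence, and glutamine share and identity between relatives were not computed. Every member is named; values in each library are given for the 3 highest and the lowest of a family and for selected pairs. The members, pairs, other gene lists, motifs and ARF classes were chosen with earlier results of these data known. Python 3.11.15, numpy 2.4.6, pandas 2.3.3 and matplotlib 3.10.9 were used.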

Additional observations from a re-analysis of the deposited data

How the results depend on the processing

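Every family level stayed above that of all nuclear genes in the alternatives tried, though its size moved. For the Aux/IAA, ARF and receptor lists (main values 0.84, 1.84 and 2.78 on the log2 scale), a pseudocount of 0.1 gave 0.96, 2.03 and 2.99, the mean over members gave 0.82, 1.75 and 2.52, and rescaling nuclear genes to 1 common sum in each library gave 0.88, 1.89 and 2.84. Keeping only genes at a mean of 1 FPKM or more, which removes low genes from the background and, of the 3 lists, only from the Aux/IAA list, gave 0.62, 0.59 and 1.52, so the ARF list then no longer lay above the Aux/IAA list. With the pseudocount of 0.1 the class A minus class B difference was -1.87 and the class C minus class B difference -2.72. The share of AFB5 in the receptor sum was 32.3% by recovered reads in place of FPKM. It could not be computed by reads for the Aux/IAA and ARF lists, where IAA7, IAA32 and ARF17 lack clear reads. When 1 library was left out the difference of AFB2 and AFB3 ran from -0.0092 (without replicate 5) to 0.087 (without replicate 6), and no other difference between single genes changed sign in any alternative. Detected counts were within 1.5 times the main ones, and leaving out 1 library kept each at 22, 14 and 6. No paired analysis was possible because there is only 1 group of samples, so no groups could be paired by replicate number. Differences between genes were taken within each library, without a test. Depth limits the order of IAA5, IAA20, IAA31, IAA33 and IAA34, which had 5 or fewer reads in each library.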
